A study of Mus musculus with 2 samples.

Results

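The interferon regulatory factors are a family of transcription factors that share a DNA-binding domain with conserved tryptophans. Their transcripts were read in RAW 264.7 cells, a mouse macrophage-like tumour line, under IFN-gamma and under IFN-gamma with adenosine. The members were taken by name, as every probe set whose annotation gave a lone gene symbol out of Irf1, Irf2, Irf3, Irf4, Irf5, Irf7, Irf8 and Irf9. All 8 genes were found, with 14 probe sets between them, out of 12393 genes and 22626 gene probe sets on the array. Both groups had received IFN-gamma at 1000 U/ml for 4 h, and adenosine at 300 uM was present throughout in only the second group. Each group is 1 Affymetrix array hybridized with RNA pooled from 2 experiments, so no value has a replicate and no test between the groups was possible. No untreated array was analysed here, so the response to IFN-gamma itself is not measured by these values. In such bulk RNA, fewer cells with a transcript and less transcript in each cell cannot be told apart.

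IFN-gamma signals through its receptor and the kinases JAK1 and JAK2. Gamma-activated sites (GAS) in promoters such as that of Irf1 mediate the first transcriptional response. IRF1 and IRF8 then act on interferon-stimulated response elements (ISRE) of macrophage genes, while IRF2 occupies the same elements and can oppose IRF1. IRF9 is the DNA-binding subunit of the complex ISGF3, which also holds STAT2. IRF3, IRF5 and IRF7 are mostly present before stimulation or induced by type I interferon, and are switched on by phosphorylation downstream of pathogen sensors. IRF4 is best known in lymphocytes, dendritic cells and alternatively activated macrophages.

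Among the RefSeq windows (GRCm38.p6) that run from 250 bases before to 50 after a gene's start, the GAS letters TTCNNNGAA were found in those of Irf1, Irf2 and Irf8. The 8 genes have 11 such windows, since Irf1, Irf8 and Irf9 are each listed with a further start. Of these 11 windows, 3 held the GAS letters, and the windows at the further starts of Irf1 and Irf8 did not. Of all 32851 windows, 8.3% held these letters on either strand. The 250 bases before the start are shown for these genes because Irf1 and Irf8 belong to the textbook set of direct IFN-gamma responders, and Irf2 acts at the same target elements as IRF1. Capitals mark the GAS letters, and in Irf2 also an ISRE (GAAA, any 2 bases, then GAAA) that overlaps an ETS-IRF composite (GGAA, any 2 bases, then GAAA). All lie on the plus strand, at chr11:53769764-53770013, chr8:120736108-120736357 and chr8:46739495-46739744.
Irf1: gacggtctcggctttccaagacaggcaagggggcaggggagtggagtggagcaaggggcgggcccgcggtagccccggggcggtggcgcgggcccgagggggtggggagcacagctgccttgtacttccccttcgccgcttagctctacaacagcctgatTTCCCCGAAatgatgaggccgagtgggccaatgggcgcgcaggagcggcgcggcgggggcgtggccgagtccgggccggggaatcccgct
Irf8: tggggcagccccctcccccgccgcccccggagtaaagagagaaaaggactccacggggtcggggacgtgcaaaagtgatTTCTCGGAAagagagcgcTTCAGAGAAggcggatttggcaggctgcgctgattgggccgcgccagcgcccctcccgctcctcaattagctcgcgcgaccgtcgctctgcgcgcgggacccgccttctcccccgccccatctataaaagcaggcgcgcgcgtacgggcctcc
Irf2: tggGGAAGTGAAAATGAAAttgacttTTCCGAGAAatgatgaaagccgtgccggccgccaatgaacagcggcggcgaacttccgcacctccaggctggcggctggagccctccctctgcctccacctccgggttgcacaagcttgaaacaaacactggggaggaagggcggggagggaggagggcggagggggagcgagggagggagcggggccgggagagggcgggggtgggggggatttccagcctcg

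In Irf1 the GAS letters read TTCCCCGAA, 90 bases before the start. Irf8 held them at 2 places, TTCTCGGAA at 171 and TTCAGAGAA at 153 bases before the start. In Irf2, TTCCGAGAA lay 224 bases before the start, and the ISRE letters GAAAATGAAA lay 241 before it. The ISRE letters stood in 3.44% of all windows and the composite in 2.72%, and no other member's window held either. The cAMP response element TGACGTCA, present in 1.79% of all windows, was in none of the members' windows, and its shorter form TGACG, present in 20.8%, was only in that of Irf7, 91 bases before the start. NF-kB letters were searched in a single form, GGGA, any base, then TTTCC (0.411% of all windows). None of the members' windows held that form, and looser forms of the NF-kB site were not searched. These are matches of letters, and no binding was measured.

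The adenosine array was dimmer almost throughout, with a median deposited signal of 15.2 against 45.9. Signals of that array were therefore multiplied by 2.82, which sets to 0 the median log2 ratio of probe sets brighter than the middle of the deposited signals in both treatments (-1.50 before scaling). A floor of 44.0, the middle of all scaled signals, was then applied: a gene below it on both arrays was not counted as measured. The floor is a convention, not a detection limit. The 18 probe sets for spiked-in hybridization controls had a median deposited log2 ratio of -0.53 ± 0.19 (SD over probe sets), so scaling on them would place every gene lower by 0.97. The only gauge of error available for a log2 ratio is how far the 2 brightest probe sets of a gene scatter. Over 2375 genes with both above the floor on both arrays, this scatter had an SD of 0.52, or 0.41 among the 594 brightest of these. Such probe sets share the same pair of arrays, so the SD holds no variation between hybridizations, RNA pools or experiments. All 10 macrophage markers were measured, with a summed signal of 36064 under IFN-gamma and 46379 with adenosine. They did not move together: 5 of the 10 lay below 0, Fcgr1 was 2.87-fold lower and Lyz2 2.07-fold higher, and all 10 were lower as deposited. With scalings that vary with signal, Lyz2 fell short of 2-fold, at log2 ratios of 0.33 (quantile) and 0.48 (loess). Fcgr1 was at -1.47 and -1.56 under the same scalings. Of 9 T and B cell markers on the array 2 were measured, Ighm (658 and 275) and Zap70 (45.9 and 97.0), and Cd3e stood at 5.40 and 7.05. Of 6 dendritic cell markers 1 was measured, Fscn1, and none of 10 fibroblast, endothelial and epithelial markers was.

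Relative to the array median, all 7 measured members had a log2 ratio below 0 when read from the brightest probe set, and their median was -0.72. Read from its next probe set, Irf3 alone crossed to 0.08. Over all 6818 measured genes the median was -0.08, and 56% of genes lay below 0. Irf8 and Irf5 were lower with adenosine by 2-fold or more, 2 of 7 members, against 10.1% of the genes measured. No member was higher by 2-fold or more, against 4.52% of the genes measured. Among the 1705 brightest of these genes, 6.1% were lower by that much. In the values as deposited all 7 members passed 2-fold on the lower side, but so did 78.8% of genes, and with spiked-in scaling all 7 did, against 50.7% of genes.

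**Figure D1:**
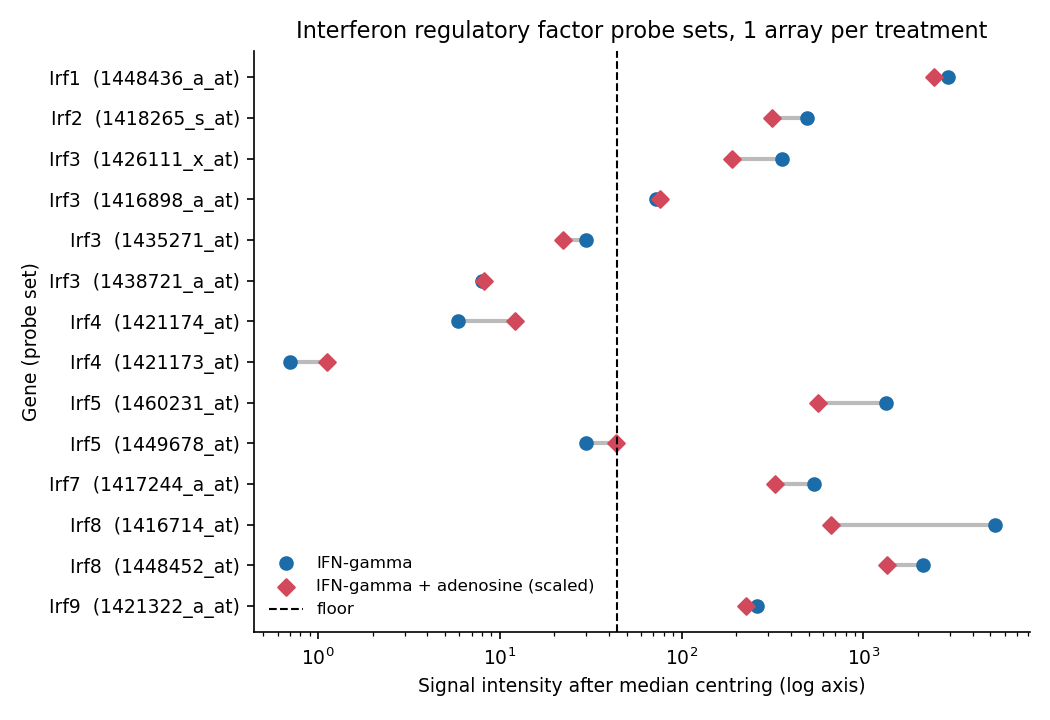
Signal intensity after median centring (log axis) of the 14 probe sets of the family, with circles for IFN-gamma, diamonds for IFN-gamma with adenosine and a dashed line at the floor of 44.0, 1 array per treatment. The widest gap belongs to the brighter Irf8 probe set (5262 against 660), and 5 probe sets of Irf3, Irf4 and Irf5 lie under the floor in both treatments.

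Irf8, the lineage factor of macrophages once named ICSBP, was read by 2 probe sets that gave different answers. The brighter, 1416714_at, had a signal of 5262 with IFN-gamma and 660 with adenosine after scaling (234 as deposited). That is 7.97-fold lower, a log2 ratio of -2.99, and the 16th lowest ratio of the 6818 measured genes. The other, 1448452_at, had 2138 and 1354 (480 as deposited), 1.58-fold lower and a log2 ratio of -0.66. Both probe sets were lower on the adenosine array, and only the brighter passed 2-fold.

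The gap between the Irf8 probe sets was 2.33 on the log2 scale. A gap at least that wide was found in 17 of the 2375 genes compared in this way (0.716%), and among the 594 brightest of these only in Irf8. The platform annotation lists the same GenBank sequence for both probe sets, so it does not separate them by transcript. The mean of the 2 log2 ratios was -1.83. Which of them follows the Irf8 transcript more closely was not tested.

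Irf1, the early IFN-gamma target that activates antigen-presentation and antiviral genes, was close to the array median. Its single probe set, 1448436_a_at (the suffix _a_at marks probes common to several transcripts of a gene), gave 2904 with IFN-gamma and 2440 with adenosine (866 as deposited), 84.0% of the IFN-gamma signal. The log2 ratio of -0.25 was smaller than the scatter SD of 0.52, and it ranked 2621st from the lowest of 6818 genes. In the values as deposited it was -1.75.

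Irf2, the factor that can oppose IRF1 at the same elements, had 491 with IFN-gamma and 313 with adenosine (log2 ratio -0.65). Its probe set carries the suffix _s_at, which marks probes shared with other transcripts. The value lay between those of Irf1 and Irf5, and it was 1.57-fold lower, short of the 2-fold threshold.

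Irf9, the DNA-binding subunit of ISGF3, was the member nearest to the array median by brightest probe sets. Its signals were 259 and 226 (80.2 as deposited), a log2 ratio of -0.20, well inside the scatter SD.

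**Figure D2:**
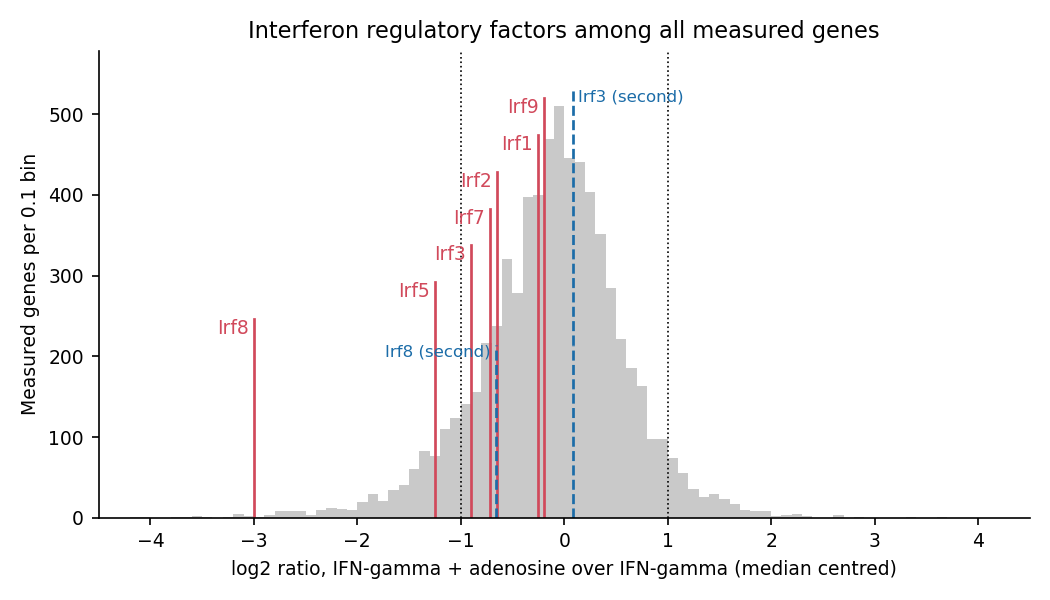
Histogram of log2 ratios (IFN-gamma with adenosine over IFN-gamma, median centred) of the 6818 measured genes in bins of 0.1, with solid lines at the brightest probe set of each member, dashed lines at the next probe set of Irf3 and Irf8 and dotted lines at 2-fold. Irf8 (-2.99) lies far out in the lower tail by its brighter probe set and at -0.66 by the other, while Irf9 (-0.20) and Irf1 (-0.25) lie near the centre.

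Among the factors that act downstream of pathogen sensors, Irf5 was the lowest. IRF5 drives inflammatory cytokine genes after Toll-like receptor signals through MYD88. Its brighter probe set, 1460231_at, had 1335 with IFN-gamma and 563 with adenosine (200 as deposited), 2.37-fold lower, a log2 ratio of -1.25. It was the 426th lowest of 6818 genes. The other probe set, 1449678_at, lay under the floor in both treatments, at 29.9 and 43.4 (15.4 as deposited). Its signal was higher under adenosine only after scaling. The 2-fold call therefore rests on the brighter probe set alone.

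Irf7, the amplifier of type I interferon production, had 538 with IFN-gamma and 328 with adenosine, a log2 ratio of -0.72. That is 1.64-fold lower and short of 2-fold.

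Irf3, the constitutively made factor that starts Ifnb1 transcription, had 4 probe sets. The brightest, 1426111_x_at, had 357 and 191, a log2 ratio of -0.90. The next, 1416898_a_at, had 72.2 and 76.4, a log2 ratio of 0.08 (-1.41 as deposited). The 2 remaining probe sets were below the floor, at 29.7 and 22.3 and at 8.00 and 8.17. The suffix _x_at of the brightest marks probes that may also bind other sequences. The gap of 0.99 between the measured pair was matched or exceeded in 15.2% of the 2375 genes. No direction for Irf3 is shared by its probe sets.

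Irf4 was below the floor in both treatments by both of its probe sets. 1421174_at had 5.90 with IFN-gamma and 12.1 with adenosine, and 1421173_at had 0.700 and 1.13. No ratio is given for it.

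Differences between members on the same pair of arrays do not depend on any constant scaling factor. Relative to Irf1, the brighter Irf8 probe set was 6.69-fold lower (-2.74 on the log2 scale) and Irf5 was 1.99-fold lower (-0.99). Quantile and loess scaling, which vary with signal, gave -2.74 and -2.65 for Irf8 relative to Irf1. Irf7 lay at -0.47, Irf2 at -0.40 and Irf9 at 0.05 relative to Irf1. Irf3 lay at -0.65 by its brightest probe set, 0.33 by its next and -0.16 by their mean. By the brightest probe sets, the order from the lowest ratio up was Irf8, Irf5, Irf3, Irf7, Irf2, Irf1 and Irf9. Irf3 and Irf8 have no settled place in it, since by their next probe sets Irf3 would come last and Irf8 would lie beside Irf2. The scatter SD of a difference between log2 ratios is 0.73, and 2 such SDs come to 1.47. Of the 21 pairs of members, 6 differed by more, and each of the 6 included Irf8. With the other Irf8 probe set in its place, which lay at -0.41 relative to Irf1, none of the 21 pairs did, and the widest difference was 1.05, between Irf5 and Irf9. Neighbours in the order from Irf5 to Irf9 are thus not separated by more than the scatter between probe sets.

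**Figure D3:**
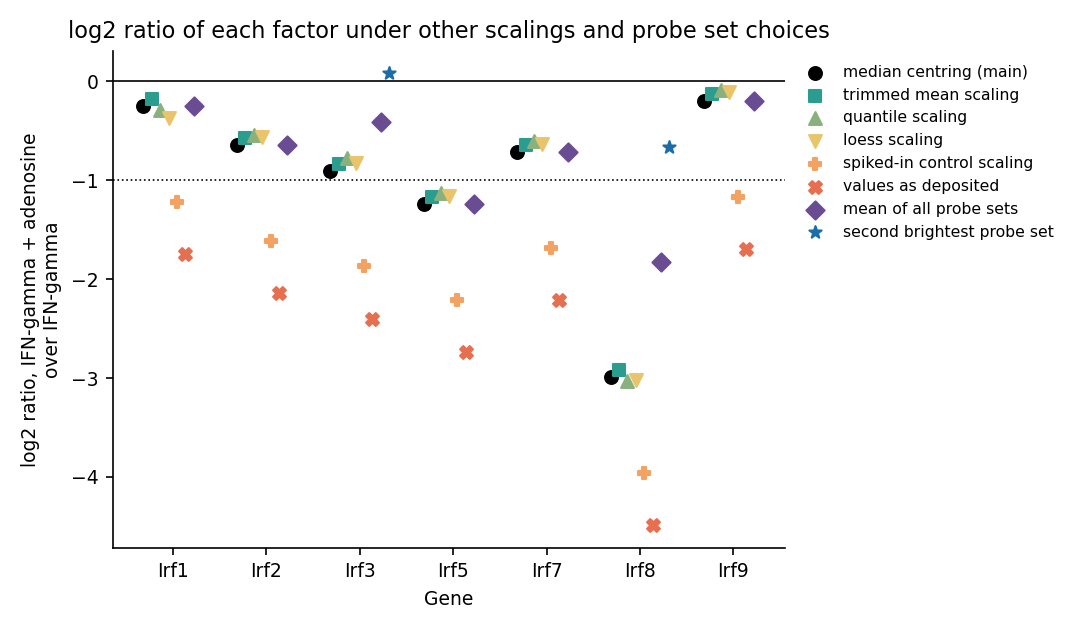
log2 ratio of each measured member (IFN-gamma with adenosine over IFN-gamma) under 6 scalings and 2 other ways of choosing probe sets, with a dotted line at 2-fold lower. Spiked-in scaling and the values as deposited move all members down together, and Irf8 moves from -2.99 to -0.66 with the other probe set, whereas Irf3 moves to 0.08.

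The genes whose pair of signals lay nearest to a member's were found by distance on the log2 scale over the 2 arrays. Nearest to Irf8 were Acod1, the itaconate-producing enzyme, at 0.17, Gbp2b, an interferon-induced GTPase, at 0.39, and the chemokine gene Ccl12 at 0.79. Their log2 ratios were -2.79, -2.58 and -2.33. Nearest to Irf1 were the lysosomal protease gene Lgmn, the actin-capping gene Capza2 and the pentose phosphate enzyme gene Pgd, with log2 ratios of -0.20, -0.17 and -0.32. Nearest to Irf5 were Cggbp1, Galnt7 and Ints5, with log2 ratios between -1.33 and -1.27. With 2 arrays, such likeness says only that signal and ratio are alike.

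Upstream of the family, the list of interferon receptors, JAK kinases, STAT factors and their feedback genes (19 names, 18 of them measured) centred on a log2 ratio of -0.25, against -0.08 for all genes. By 2-fold or more, 4 of the 18 were lower and 1 was higher, against 10.1% and 4.52% of all genes. With quantile or loess scaling the lower count was 2 of 18, while 8.32% (quantile) and 12.6% (loess) of all genes were lower. It was 13 for unscaled signals (78.8% of all genes) and 10 after scaling on the spiked-in controls (50.7% of all genes). The unscaled and spiked-in settings left none higher. Usp18, the protease that removes ISG15 and dampens the type I receptor, was 4.11-fold lower. The phosphatase gene Ptpn6 was 2.25-fold lower (-0.69 by its other probe set) and Jak2 2.10-fold lower (-0.87 by its other probe set). Jak2 fell short of 2-fold with quantile (-0.96) and loess (-0.999) scaling. Stat5a was 2.56-fold higher on this scale but below 0 as deposited, and its other probe set gave 0.19. Of the receptor chains, Ifngr1 went from 134 to 140 and Ifngr2 from 390 to 695, ratios that turn negative as deposited and with spiked-in scaling. Jak1 had 1127 and 1082, but its dimmer probe sets gave log2 ratios of -0.55 and 1.22.

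Among kinases, adaptors and sensors that activate IRF3, IRF5 and IRF7, 13 genes were measured (22 names, 14 on the array). Of the 13, 6 were lower by 2-fold or more and 1 was higher, against 10.1% and 4.52% of all genes. The list median was -0.94. As deposited and with spiked-in scaling 11 were lower and none higher, against 78.8% and 50.7% of all genes lower. With quantile, loess or trimmed mean scaling 5 were lower, against 8.32%, 12.6% and 8.78% of all genes. Ikbke, which encodes a kinase of IRF3 and IRF7, was 6.71-fold lower, from 618 to 92.2. Tbk1, the related kinase gene, had 862 and 569, a log2 ratio of -0.60 (-0.76 by its other probe set). Mavs, the mitochondrial adaptor of RNA sensing, was at least 4.28-fold lower, since its adenosine signal lay below the floor, and -1.05 by its other probe set. Tank, the scaffold of these kinases, was 3.11-fold lower. Traf6, the ubiquitin ligase of the MYD88 route, had a brightest probe set 3.13-fold higher. Each of 2 dimmer ones had a signal under the floor and gave only bounds, of -0.40 and 0.07, that pointed opposite ways. Type I interferon genes were not detected above the floor: none of the 6 on the array was measured, and their summed signal was 15.3 with IFN-gamma and 14.7 with adenosine.

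Lists of textbook targets were examined for the factors with the best-known target genes. Of 21 measured ISGF3 targets (26 names, 22 on the array), 11 were lower by 2-fold or more and none was higher by that much. Their median was -1.17, with 6 of them at a bound set by the floor. The lower count was 21 of 22 as deposited, 17 of 22 with spiked-in scaling and 14 of 22 with loess scaling; of all genes, 10.1% were lower with median centring, 78.8% as deposited and 50.7% with spiked-in scaling. Parp14, a macrodomain ADP-ribosyltransferase, was 8.28-fold lower and Ifit2, of the tetratricopeptide family that binds viral RNA, 7.32-fold lower. Oasl2 was at least 6.90-fold lower. Rsad2, the antiviral enzyme viperin, was 5.78-fold lower, while its dimmer probe sets gave -0.18 and, with the adenosine signal under the floor, a bound of -1.89. Within ISGF3, Irf9 stood at -0.20 and Stat2 at 0.61 (0.13 by its other probe set, and -0.89 as deposited).

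Of 18 measured IRF1 targets (28 names, 25 on the array), 8 were lower by 2-fold or more and none was higher by that much. Their median was -0.90, with 3 at a bound. As deposited 17 of 20 were lower and with spiked-in scaling 14 of 19, against 78.8% and 50.7% of all genes. With median centring, 10.1% of all genes were lower and 4.52% higher. Gbp2 was 16.2-fold lower and Cd274, which encodes the checkpoint ligand PD-L1, 5.13-fold lower. Tap1, the peptide transporter gene, was 3.64-fold lower and Casp1 2.78-fold lower. The immunoproteasome gene Psmb9 had 2004 and 1054, a log2 ratio of -0.93. Nos2, Ciita and Il12b lay under the floor in both treatments, at signals of at most 39.0.

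Of 14 measured IRF8 targets (24 names, 20 on the array), 3 were lower and 2 higher by 2-fold or more. Genome-wide, the matching shares were 10.1% and 4.52%. Their median was -0.17, with 2 at a bound. The balance moved with the scaling, to 11 lower and 1 higher as deposited, 9 and 1 with spiked-in scaling, and 2 and 2 with quantile or loess scaling. Genes at large shifted too, so these counts do not set the list apart from them. When signals were left unscaled, 78.8% of measured genes passed 2-fold on the lower side. The share was 50.7% after scaling on the spiked-in controls, 8.32% after quantile and 12.6% after loess scaling. The cytokine gene Il18 was 3.01-fold lower and the protease gene Ctsc 2.12-fold lower. Cd80, a costimulatory ligand, was 3.86-fold higher from a signal of 48.1, near the floor, with log2 ratios short of 2-fold as deposited (0.45) and with spiked-in scaling (0.98). Il1b, whose IFN-gamma signal was under the floor, was at least 12.5-fold higher. Cybb, the catalytic subunit of the phagocyte oxidase and a classical IRF8 target, had 3445 and 3199, a log2 ratio of -0.11. Some genes stand on more than one of these lists, so the counts are not independent, and no difference between lists was tested.

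**Figure D4:**
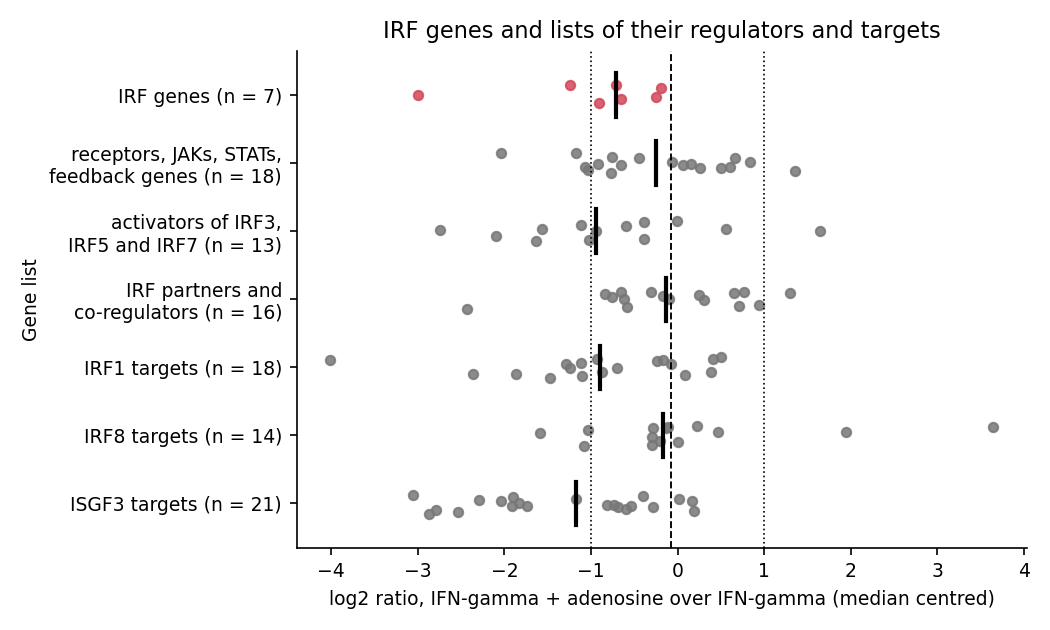
log2 ratios (IFN-gamma with adenosine over IFN-gamma, median centred) of measured genes in the family and in 6 lists of its regulators and targets, each point a gene, bars at list medians, a dashed line at the median of all measured genes (-0.08) and dotted lines at 2-fold. The list median lies at -1.17 for ISGF3 targets and -0.90 for IRF1 targets, against -0.17 for IRF8 targets.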

How the data were processed

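RNA of RAW 264.7 cells was hybridized to Affymetrix mouse arrays, 1 per treatment. Linear intensity values were deposited for 22690 probe sets; per the submitters' processing notes GCOS was used, while the scaling target and the signal algorithm were not stated by any source used here. Probe sets were named through the platform annotation: 20380 carried a lone symbol, 691 several and 1555 none, and 64 were controls. The adenosine array was median centred on the other and a floor set at the 50th percentile of scaled signals, and each gene was read from its brightest probe set by mean signal. The number of arrays limits precision. With 1 array per treatment there is no test, and genes were counted at 2-fold. The functions were checked on simulated data. Python 3.11.15, numpy 2.4.6, pandas 2.3.3 and statsmodels 0.14.6 (loess span 0.3) were used.

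The members and the lists were chosen with earlier results of these data known. Named were all members, up to 3 nearest genes each for Irf1 and members past 2-fold, up to 4 genes of largest ratio per list, and a short list of genes whatever their value. Some of the latter are not reported here, nor was a planned comparison of proteins made. Other scalings, floors, a pseudocount of 16, other probe set rules and thresholds were tried.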

Additional observations from a re-analysis of the deposited data

How the results depend on the processing

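No paired analysis was possible because there is a lone array for each treatment, and leaving out a replicate was likewise not possible. Of the 7 measured members, 2 were at least 2-fold lower, against 10.1% of all genes. All 7 were so in deposited values (78.8% of all genes) and with spiked-in scaling (50.7%). A 1.5-fold threshold gave 5 members (21.8% of all genes) and a 3-fold threshold 1, Irf8 (2.96%). With the second brightest probe set it was 0 of 2 (Irf3 and Irf8), against 8.54% of 2774 genes. The family median of -0.72 became -2.21 as deposited, -1.68 with spiked-in scaling and -2.12 over the 2 members left (Irf5 and Irf8) without probe sets of shared-target names, which 7 of the 14 bear, and -0.29 over the 2 members (Irf3 and Irf8) with a measured second probe set. No setting made a member 2-fold higher. Irf5 was at least 2-fold lower in all 10 alternatives that gave it a value (-2.74 to -1.13) and Irf8 in 10 of 11, the exception being its dimmer probe set. Irf1, Irf2, Irf7 and Irf9 were below 0 in each of 9, and Irf3 in 9 of 10. Many of these outcomes were fixed in advance, so the counts do not measure stability. Both floors returned the main value of each of these members. So did the mean of all probe sets, except for Irf3 and Irf8. Leaving out shared-target names returned the main values of Irf5 and Irf8. Deposited values and spiked-in scaling move all members down together. With quantile scaling Irf9 was only at -0.09. Of the floors tried, Irf4 passed only that at the 33rd percentile. Scaling moved the genome-wide split: 308 genes higher and 691 lower became 10 and 5605 as deposited, 33 and 3538 with spiked-in scaling, and 398 and 568 with quantile scaling. With the 33rd percentile as floor 599 were higher, and with the 67th 133 were higher and 328 lower; second brightest probe sets gave 237 lower; a 1.5-fold threshold gave 879 and 1489, and 3-fold 67 and 202. The median of all measured genes was -1.50 as deposited and -1.01 with spiked-in scaling. Dim probe sets, near the floor of 44.0, limit what can be read for Irf3, Irf4 and the dimmer Irf5 probe set.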

Other observations

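Proteins that bind DNA beside interferon regulatory factors, or modify them, had a median log2 ratio of -0.13 over 16 measured genes, near the -0.08 of all genes, and by 2-fold or more 1 was lower and 1 higher, against 10.1% and 4.52% of all genes. As deposited 11 of the 16 were lower and with spiked-in scaling 9, against 78.8% and 50.7% of all genes. None of the 16 was higher in either. The lower gene was Batf2, which encodes a leucine zipper partner of IRF factors in activated macrophages, with 1548 under IFN-gamma and 286 with adenosine, 5.40-fold lower. Nfatc1, the calcium-regulated factor, was 2.46-fold higher (a bound of 2.18 on the log2 scale by its other probe set, whose IFN-gamma signal was under the floor), though -0.19 by the brighter probe set as deposited. Cebpb had a log2 ratio of 1.64 by its dimmer probe set with median centring. By its brighter probe set it had 0.94, which turns negative as deposited (-0.56) and with spiked-in scaling (-0.03). Spi1, which encodes PU.1, the ETS partner of IRF4 and IRF8, had 1642 and 2035, a log2 ratio of 0.31 that also turns negative under those scalings. The acetyltransferase gene Kat2b stood at -0.84 and the co-repressor gene Irf2bp1 at -0.65. Batf lay under the floor in both treatments, at 8.30 and 9.02.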
